A study of Rattus norvegicus with 6 samples.

Results

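The S100 calcium-binding proteins measured here are 10 genes of rat NRK-52E cells, S100a1, S100a3, S100a4, S100a5, S100a6, S100a8, S100a9, S100a10, S100a11 and S100a13. They were taken by name, as the probe sets whose single gene symbol in the platform annotation is one of these 10, out of 18166 genes with a value. Each of the 10 was read by 1 probe set. NRK-52E is an established epithelial line from rat kidney, so all arrays come from 1 line. The control group was 3 arrays of cells titled control, and the other group was 3 arrays of cells overexpressing the Notch1 intracellular domain (NICD1), the nuclear part of the Notch1 receptor, from the pINDUCER21 vector system. Both groups were grown in the same medium with fetal calf serum. The sources used here do not say which vector the control cells held or if an inducer was added. The question is how each S100 transcript differs in level when NICD1 is overexpressed.

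S100 proteins are small proteins with EF-hand calcium-binding loops that mostly form dimers. On binding calcium most of them expose a surface that grips other proteins, such as annexins, myosin and enzymes, and several are also released from cells and act on receptors such as Ager and Tlr4. Most S100 genes lie side by side in 1 chromosomal block that also holds genes of the outer skin layer. In the kidney S100a4 is widely used as a marker of fibroblasts and of epithelial cells that take on mesenchymal features, S100a6, S100a10 and S100a11 are found in many epithelia, and S100a8 and S100a9 belong to neutrophils and monocytes.

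Levels are log2 values of the deposited linear intensity. A change is NICD1 minus control on that scale, with its standard error (SE) and 95% interval from limma, a linear model fitted to all genes. The threshold for a call was 0.05 on the p-value of limma after Benjamini-Hochberg adjustment across the 18166 genes. The file has no detection call, so a background level of 5.74 was taken from the 95th percentile of the mean level of 1398 chemosensory receptor genes, receptors of smell, taste and pheromone cells. Different probe sets differ in brightness, so levels are compared between arrays and not between genes. Nothing in the labels says that the arrays came from separate cultures, so the p-values measure the spread between these arrays, which may be technical.

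Notch1 and its target Hey1 were read first, as a check of the labels. Notch1 was 8.52 ± 0.13 in control and 9.18 ± 0.075 in NICD1 cells, and the Notch-induced repressor Hey1 was 6.58 ± 0.29 and 9.99 ± 0.058 (SD, n = 3 each). Median linear intensity ran from 57.5 to 60.1 over the 6 arrays. The second principal component over genes set control replicate 1, at 16.2, apart from the other 5 arrays, which lay between -8.99 and 2.04. Of 13 measured markers of tubule epithelium, 5 lay above background in at least 1 group, namely Krt8, Krt19, Cdh2, Pax2 and Dab2. Cdh1, Epcam, Cdh16, Pax8, Lrp2 and Cubn, which mark differentiated tubule epithelium, lay below it in both groups.

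S100a4 fell in NICD1 cells, and it was the 1 member of the 10 that passed the test. The other 9 did not pass, with changes from -0.14 for S100a6 to 0.37 for S100a10. The share of members called, 1 of 10, compares with 14.7% of all genes, and with 7.22% called lower and 7.45% called higher. The 2 groups lay fully apart for 4 members (S100a3 and S100a10 higher, S100a4 and S100a13 lower), against 32.8% of all genes. The median change over the 10 members was -0.0063 and the median over all genes was 0.0073. The median size of the change, without its sign, was 0.073 for the members and 0.10 for all genes. Neither share nor median sets the members apart from the rest of the array.

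**Figure D1:**
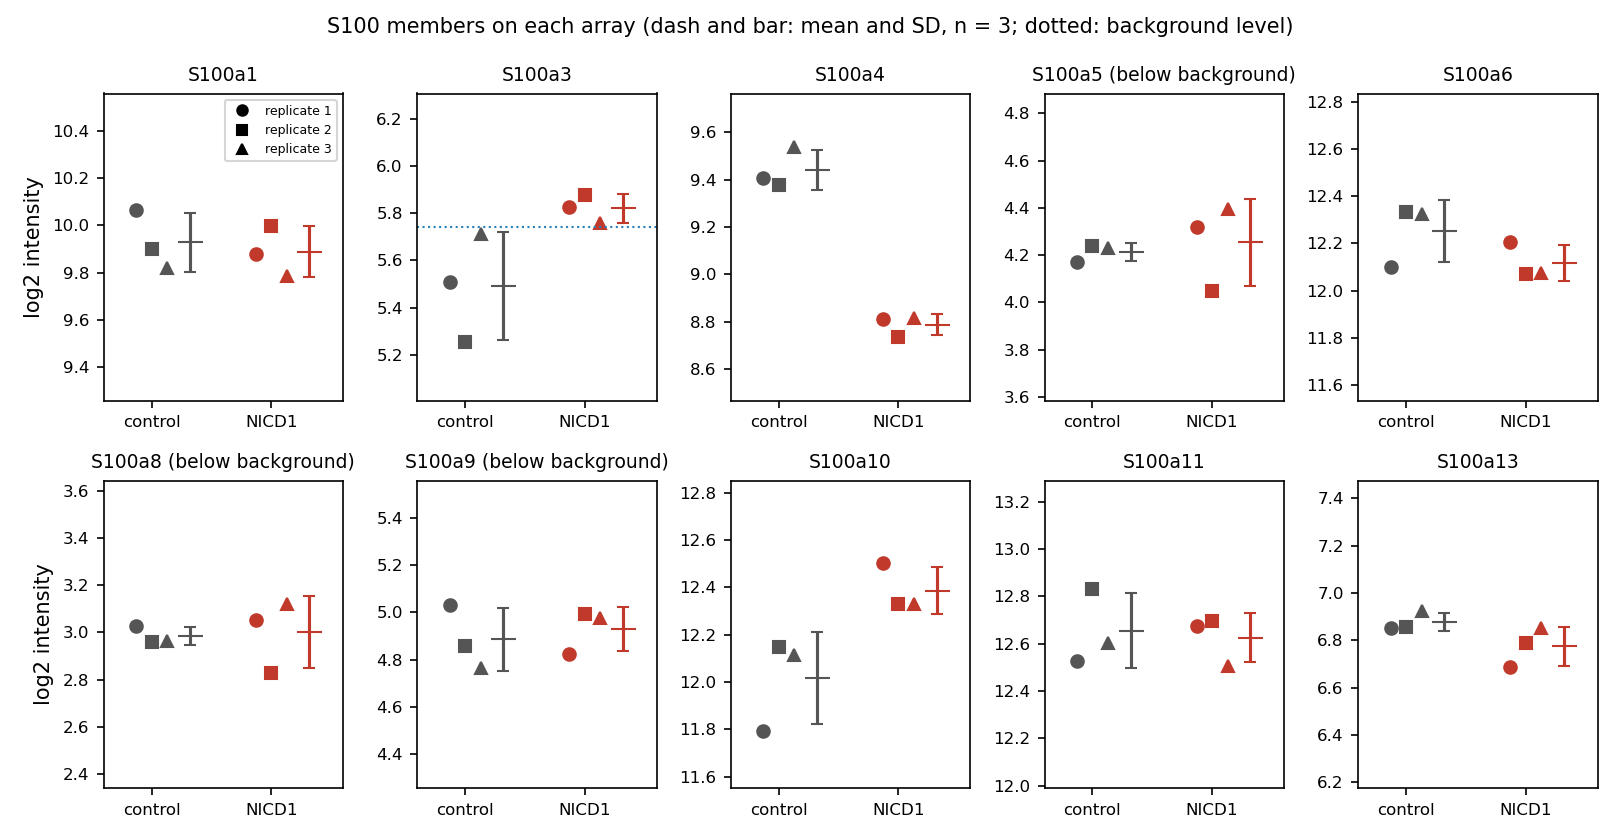
Log2 intensity of each of the 10 S100 genes on the 3 control (grey) and 3 NICD1 (red) arrays, with the mean and SD of each group beside the points. Every panel spans the same range of log2 units, and the dotted line in the S100a3 panel is the background level of 5.74. The S100a4 groups lie clearly apart, and control replicate 1 is the lowest control for S100a6, S100a10 and S100a11.

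All 10 genes lie on rat chromosome 2 in the RefSeq annotation of GRCr8. The start regions of S100a4 and of its close neighbour S100a6 are shown because the first gene fell and the second did not pass. RefSeq promoter windows, each running from 250 bases before to 50 bases after the annotated start, were found for 7 of the 10 members (S100a3, S100a4, S100a5, S100a6, S100a9, S100a11 and S100a13). Both windows are on the plus strand of GRCr8, S100a4 at chr2:178388279-178388578 and S100a6 at chr2:178398287-178398586, written 5′ to 3′ with any match to the searched motifs in capitals.
S100a4: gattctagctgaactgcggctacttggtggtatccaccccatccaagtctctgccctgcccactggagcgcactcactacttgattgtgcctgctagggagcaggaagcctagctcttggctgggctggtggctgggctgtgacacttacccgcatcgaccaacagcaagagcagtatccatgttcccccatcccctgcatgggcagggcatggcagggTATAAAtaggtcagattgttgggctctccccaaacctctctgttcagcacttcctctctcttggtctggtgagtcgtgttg
S100a6: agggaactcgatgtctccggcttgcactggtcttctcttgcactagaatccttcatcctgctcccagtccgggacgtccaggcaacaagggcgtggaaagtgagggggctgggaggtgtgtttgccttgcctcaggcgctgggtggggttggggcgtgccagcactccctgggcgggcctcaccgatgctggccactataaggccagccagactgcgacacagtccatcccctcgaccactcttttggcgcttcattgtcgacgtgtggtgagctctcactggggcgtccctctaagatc

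The capitals in the S100a4 window mark TATAAA, the TATA box letters, with their first base at position -31 from the start. S100a9 holds the same letters at position -42, so 2 of the 7 windows have them, against 14.2% of 33469 windows of 300 bases. GTGGGAA, the core bound by the Notch partner RBPJ, CACGTG, an E-box bound by Hes and Hey factors, and TGANTCA, the AP-1 site, were each searched on both strands. None of these 3 was found in any of the 7 windows. They were in 6.29%, 6.42% and 7.33% of all windows. These are letter matches in a short window. The S100a4 window had a G and C content of 56.3%, the S100a6 window 61.3%, and the median window 51.7%.

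S100a4 (Entrez gene 24615), a calcium sensor that binds nonmuscle myosin and is tied to cell motility, measured 9.41, 9.38 and 9.54 on control replicates 1 to 3. On NICD1 replicates 1 to 3 it measured 8.81, 8.74 and 8.82. All 3 NICD1 arrays lay below all 3 controls, and the gap between the groups was wider than the range within either. The change was -0.65 (SE 0.063, 95% interval -0.80 to -0.51), a level 36.4% lower (limma adjusted p = 0.000547, lower on 3 of 3 NICD1 arrays). Leaving out any 1 array gave changes between -0.69 and -0.60 with adjusted p between 0.00234 and 0.00382. In a culture measured in bulk, fewer cells that express a gene and less RNA per cell cannot be told apart.

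Because S100a4 is also a fibroblast marker, the other fibroblast and pericyte markers are given beside it. Of 11 measured, 2 were called higher (Col1a1, 0.90, and Col3a1, 0.46) and 2 lower (Mfap5, -0.85, and Fbln1, -0.34). The share called was 36.4%, against 14.7% of all genes. Fbln1 lost its call without control replicate 2 (adjusted p = 0.0513) or NICD1 replicate 2 (0.0696). The summed linear intensity of the 11 was 4799 to 4974 in control and 3595 to 3797 in NICD1 cells. Mfap5, a microfibril protein and the brightest of them, made up most of that sum. Without it the sum of the other 10 was 1531 to 1679 in control and 1819 to 1877 in NICD1 cells, so the direction turned. Col1a2, Pdgfra, Dcn and Lum lay below background in both groups. Among the 13 tubule epithelium markers, Krt8, a keratin of simple epithelia, rose by 1.08 (SE 0.055) and Cdh2, the N-cadherin of tubule cells and of mesenchymal cells, by 1.32 (SE 0.077). Dab2, an endocytic adaptor, fell, at -2.34 (SE 0.071). These 3 changes were larger in size than that of S100a4 and were called without any 1 array, while the other 10 markers were not called. That is 23.1% of the tubule markers called. The summed linear intensity of the 13 was 2301 to 2381 in control and 3544 to 3722 in NICD1 cells, and without Krt8, the brightest, 991 to 1086 and 836 to 878. The part of the fibroblast and epithelial markers in the S100a4 change was not tested.

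The 3 genes whose level followed that of S100a4 most closely over the 6 arrays were Ezh1, a histone methyltransferase (Pearson's r = 0.998), Itgb8, an integrin subunit (0.998), and Vgll3, a cofactor of TEAD factors (0.997). They were taken from genes above background, with placeholder symbols (LOC and RGD) left out. The 6 points share their 2 groups, and the r is a description. Ezh1 changed by -0.50 (SE 0.059), Itgb8 by -0.95 (SE 0.063) and Vgll3 by -0.79 (SE 0.065), and all 3 were called lower.

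S100a10 (Entrez gene 81778), also called p11, holds annexin A2 at the membrane and serves as a docking site for tissue plasminogen activator and plasminogen. It measured 11.79, 12.15 and 12.11 in control and 12.50, 12.33 and 12.33 in NICD1 cells. The 3 NICD1 arrays were higher than the 3 controls, and control replicate 1 stood below the other controls. The change was 0.37 (SE 0.106, 95% interval 0.12 to 0.62), which did not pass (limma adjusted p = 0.0633, higher on 3 of 3 arrays). It passed with quantiles normalised again (0.40, adjusted p = 0.0332), without the dimmest 30% of genes (adjusted p = 0.0332) and with an intensity trend and robust prior (adjusted p = 0.0206). S100a10 did not pass under the other 6 settings, among them median centring (adjusted p = 0.0850) and each probe set tested (0.159). Nor did it pass with any 1 array left out (adjusted p from 0.0728 to 0.179). Without control replicate 1 the change was 0.26 (adjusted p = 0.0800).

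S100a6 (Entrez gene 85247), or calcyclin, binds annexins and the ubiquitin-ligase adaptor Cacybp. Control arrays measured 12.10, 12.33 and 12.33, and NICD1 arrays 12.20, 12.07 and 12.07. The groups overlapped because control replicate 1 was as low as the NICD1 arrays. The change was -0.14 (SE 0.081, 95% interval -0.33 to 0.055; limma adjusted p = 0.355), and without control replicate 1 it was -0.21 (adjusted p = 0.0903). Both ends of the interval are smaller in size than the change of S100a4.

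S100a11 (Entrez gene 445415), a partner of annexin A1 in membrane repair and keratinocyte growth control, measured 12.53, 12.83 and 12.60 in control and 12.67, 12.70 and 12.51 in NICD1 cells. The groups overlapped, with a change of -0.030 (SE 0.095, 95% interval -0.25 to 0.19; limma adjusted p = 0.892). The rat annotation holds 7 other entries named as S100a11-like genes or S100a11 pseudogenes, and 1 pseudogene of S100a10. How far transcripts of such copies reach the probes was not tested. The copy S100a11l1 had a probe set of its own at 4.90 ± 0.34 in control and 4.93 ± 0.031 in NICD1 cells (SD, n = 3 each), below background. Another probe set, which carries 2 symbols including that of an S100a11-like copy and so was assigned to no gene, measured 6.19, 7.28 and 6.94 in control and 7.14, 6.98 and 6.82 in NICD1 cells. It lay above background on all 6 arrays, and its groups overlapped.

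S100a1 (Entrez gene 295214), best known as a regulator of calcium release and uptake in muscle, was 9.93 ± 0.12 in control and 9.89 ± 0.11 in NICD1 cells (SD, n = 3 each). Its change of -0.040 (SE 0.085, 95% interval -0.24 to 0.16) was smaller than the spread within either group. S100a13 (Entrez gene 295213), which takes part in the release of Fgf1 and interleukin 1 alpha from cells without a signal peptide, was 6.88 ± 0.039 and 6.77 ± 0.082. Its groups were just apart, the lowest control at 6.85 and the highest NICD1 array also at 6.85. The change was -0.10 (SE 0.061, 95% interval -0.25 to 0.043; limma adjusted p = 0.360), and -0.058 without NICD1 replicate 1.

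S100a3 (Entrez gene 114216), a zinc- and calcium-binding protein of the hair cuticle, sat at the edge of background. It measured 5.51, 5.25 and 5.71 in control, all under 5.74, and 5.83, 5.88 and 5.76 in NICD1 cells, all just over it. The change was 0.33 (SE 0.113, 95% interval 0.063 to 0.60) and did not pass (limma adjusted p = 0.109). It passed without control replicate 3 (0.44, adjusted p = 0.0353), whereas without control replicate 2 it was 0.21 (adjusted p = 0.198).

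S100a8 and S100a9, which pair to form calprotectin, and S100a5, known from olfactory neurons, lay below background on all 6 arrays. S100a8 (Entrez gene 116547) measured 3.03, 2.96 and 2.97 in control and 3.05, 2.83 and 3.12 in NICD1 cells. S100a9 (Entrez gene 94195) measured 5.03, 4.86 and 4.77 in control and 4.82, 4.99 and 4.97 in NICD1 cells. S100a5 (Entrez gene 295211) was 4.21 ± 0.038 in control and 4.25 ± 0.18 in NICD1 cells (SD, n = 3 each). The groups of all 3 genes overlapped, and their changes were 0.017, 0.044 and 0.040 with SE between 0.083 and 0.094. Below background an array shows little of a true change, so these values bear only on the signal of the probe sets. Among 13 measured leukocyte markers 0 were called, against 14.7% of all genes. Limma's unadjusted p was under 0.05 for 1 rise and 0 falls of the 13, against 2516 rises and 2345 falls of all 18166 genes. Of the 13, 10 lay below background in both groups, Ptprc, Itgam, Mpo and Elane among them. Itgb2, a leukocyte integrin subunit (5.77 and 5.83), and Camp, a neutrophil granule peptide (5.81 and 5.93), sat at the edge of background, above it on 5 of 6 arrays each. The monocyte coreceptor Cd14 was 11.19 ± 0.024 in control and 11.32 ± 0.037 in NICD1 cells (SD, n = 3 each). The summed linear intensity of the 13 markers was 2710 to 2799 in control and 2918 to 3063 in NICD1 cells, most of it from Cd14. Without Cd14 the sums were 402 to 418 and 405 to 431, which overlap.

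**Figure D2:**
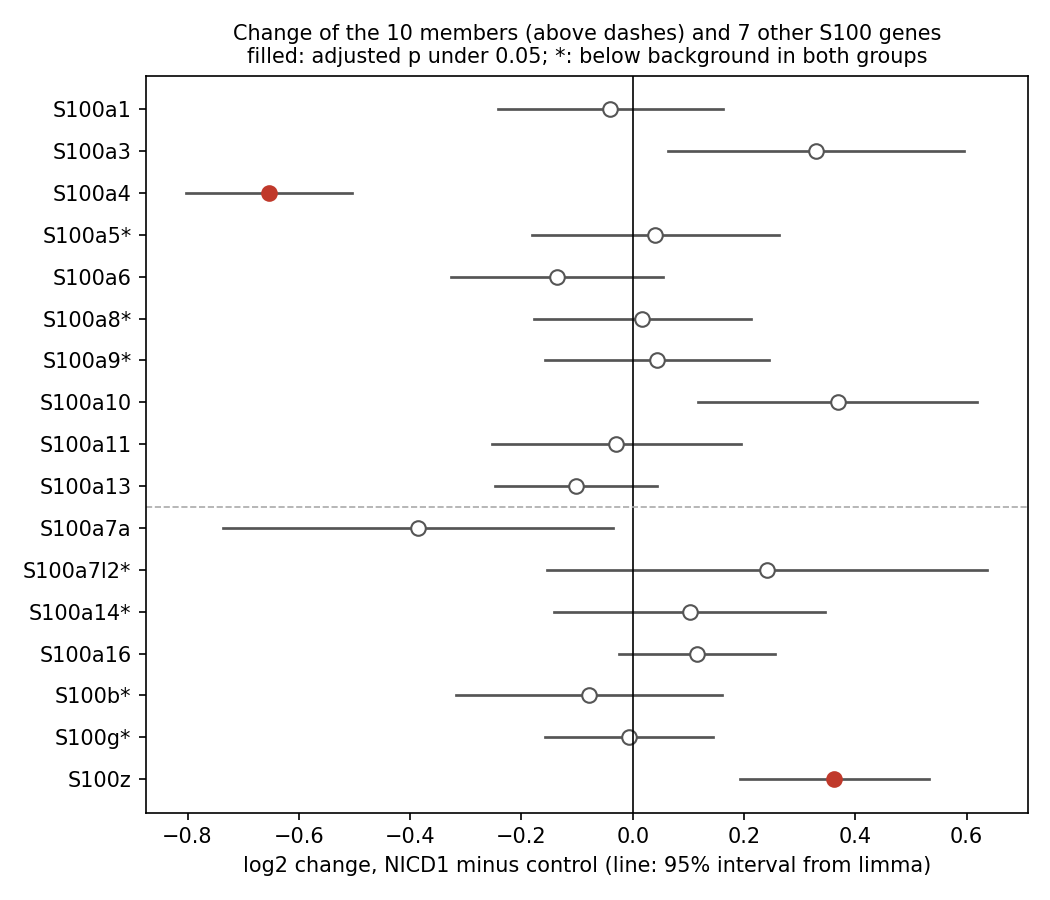
Change of each S100 gene on the log2 scale, NICD1 minus control, with its 95% interval from limma. Filled points passed at an adjusted p under 0.05, and an asterisk marks genes below background in both groups. S100a4, at -0.65, lies apart from the other members, whose changes run from -0.14 to 0.37, and S100z, outside the 10, is the other gene that passed.

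The 7 further S100 genes with a value place the 10 members within the family. S100z (Entrez gene 294661), a less studied member, rose in NICD1 cells, to 6.28 ± 0.12 against 5.91 ± 0.035 (SD, n = 3 each), a change of 0.36 (SE 0.072; limma adjusted p = 0.0154). All 6 arrays lay above the background of 5.74, the controls only just. The S100z call was lost without control replicate 2 (adjusted p = 0.0514), control replicate 3 (0.0575), NICD1 replicate 1 (0.0523) or NICD1 replicate 2 (0.0594). S100a7a, a psoriasin-type gene of skin, was -0.39 (SE 0.149; limma adjusted p = 0.148). Its control replicate 1, at 6.22, lay with the NICD1 arrays at 6.05 to 6.25 and below the other controls at 6.77 and 6.72. Without that array the change was -0.56 (adjusted p = 0.00876).

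S100a16, which is broadly expressed, measured 9.03 ± 0.064 in control and 9.14 ± 0.056 in NICD1 cells, and its change of 0.12 did not pass (SE 0.060; limma adjusted p = 0.280). S100a7l2 (0.24), S100a14 (0.10), S100b (-0.079) and S100g (-0.0071), the last a calcium carrier of intestine and kidney also called calbindin-D9k, lay below background in both groups. So did S100vp (0.19), which was not in the list. In the S100-fused genes of skin an S100 domain leads a long repeat protein. Of these, 4 were measured and 0 were called by limma, against 14.7% of all genes. At an unadjusted limma p under 0.05 there were 0 of the 4, against 2516 rises and 2345 falls of all 18166 genes. Flg, with the smallest p of the 4, was 0.11.

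No neighbour between the members on chromosome 2 passed the test. Between the first and the last member in gene order lay 25 other genes with a value, of which 0 were called by limma, against 14.7% over all genes. At an unadjusted limma p under 0.05 there were 1 rise and 1 fall among them, against 2516 rises and 2345 falls over all 18166 genes. Of these 25, 18 lay below background, where an array shows little of a true change. Their median change was -0.034. Of 15 genes on the S100a1 side 0 were called, with 1 rise and 0 falls at an unadjusted p under 0.05, and their median was -0.0040. On the S100a10 side 4 of 15 were called. The splicing factor Celf3 rose by 0.94 (SE 0.083) and the enamel matrix gene Tuft1 by 0.48 (SE 0.054). The endosomal sorting nexin Snx27 (-0.18, SE 0.047) and the tight junction protein Cgn (-0.31, SE 0.080) fell. The rises were called without any 1 array. Snx27 was not called once any 1 array was left out (lowest limma adjusted p = 0.0560). Cgn kept its call only without control replicate 2 (limma adjusted p = 0.0375). In all, 4 of 55 neighbours, 7.27%, were called. S100a7a, a neighbour between the members, was not among them. It was called lower without control replicate 1 (limma adjusted p = 0.00876) and with array weights (0.0411).

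**Figure D3:**
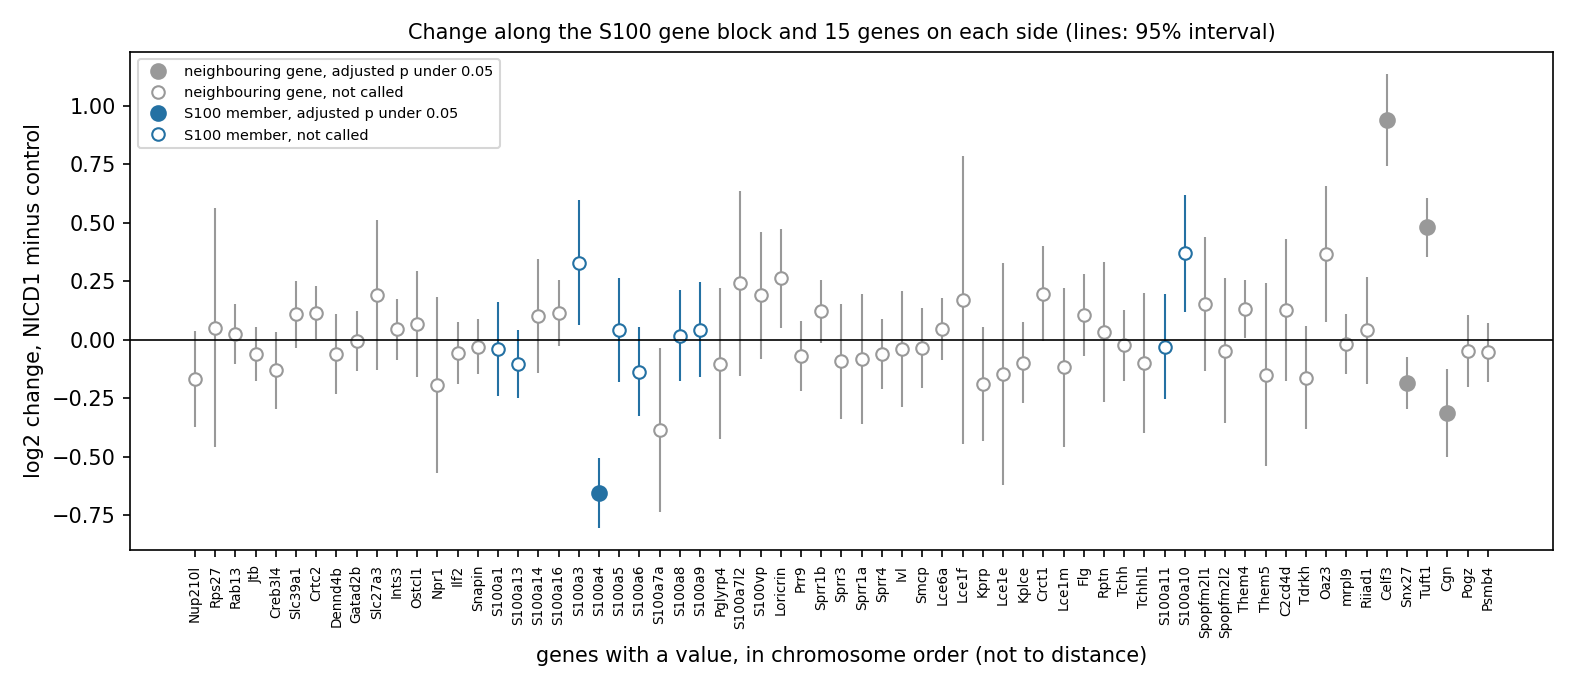
Change of 65 genes on the log2 scale, NICD1 minus control, in their order along chromosome 2, with S100 members in blue, neighbours in grey and 95% intervals as lines. Positions are in gene order and not to distance. S100a4 is the one filled point inside the block, and the 4 filled grey points lie beyond S100a10.

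Of 24 measured genes whose proteins act with S100 proteins inside the cell, 5 fell and 0 rose, 20.8% called against 14.7% of all genes, with a median change of -0.042. Of the 24, 20 lay above background, against 11410 of all 18166 genes, and the shares were not matched for level. Anxa6, an annexin, was -0.34 (SE 0.070), Cacybp -0.30 (SE 0.066), Mdm2, the ubiquitin ligase of p53, -0.29 (SE 0.073) and Anxa1 -0.25 (SE 0.059). Each of these lost its call without at least 1 array (highest limma adjusted p = 0.0669, 0.0808, 0.123 and 0.113). Dlc1, a GTPase-activating protein that S100a10 can bind, was -0.54 (SE 0.056; limma adjusted p = 0.000768) and was called without any 1 array. Anxa2 (0.15, SE 0.053; limma adjusted p = 0.114) and the S100a4 partner Myh9, a nonmuscle myosin heavy chain (0.096, SE 0.050; limma adjusted p = 0.284), did not pass.

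Of 19 measured surface and secretion genes linked to S100 proteins, 8 rose and 1 fell, 47.4% called against 14.7% of all genes. Their median change was 0.25, against 0.0073 over all genes. This list was chosen with earlier results of these data known and was not tested as a set. Plat, tissue plasminogen activator, measured 9.72, 9.63 and 9.68 in control, and its lowest NICD1 array was at 10.93. The means were 9.68 ± 0.046 and 10.97 ± 0.036 (SD, n = 3 each), a rise of 1.29 (SE 0.053; limma adjusted p = 1.59e-05), 2.45-fold, on 3 of 3 arrays. The growth factor receptors Fgfr1 (0.72) and Egfr (0.47), the heparan sulphate proteoglycans Sdc4 (0.69) and Sdc1 (0.54), the growth factor Fgf1 (0.48), the adhesion molecule Alcam (0.33) and the lysosomal Cd68 (0.27) also rose. The calls of Fgf1, Alcam and Cd68 were each lost without at least 1 array (highest limma adjusted p = 0.0721, 0.0676 and 0.0848). Dystroglycan, Dag1, fell by 0.49. Ager (-0.033) and Tlr4 (0.13), the receptors most often named for released S100 proteins, did not pass.

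Over both partner lists 8 rose and 6 fell of 43, 32.6% called against 14.7% of all genes. Of the 43, 34 lay above background, against 11410 of all 18166 genes, and the shares were not matched for level. Without the dimmest 30% of genes, 3216 of 12716 genes were called, a larger share than 14.7%. Partners again gave 8 rises and 6 falls in that setting. Dropping control replicate 2, or NICD1 replicate 2 or 3, left 5 rises. Dropping control replicate 2 left 3 falls, and dropping control replicate 3, or NICD1 replicate 1 or 3, left 2.

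Among 23 other EF-hand genes 2 rose and 3 fell, 21.7% called against 14.7% of all genes, with a median change of -0.055. Of the 23, 20 lay above background, against 11410 of all 18166 genes, and the shares were not matched for level. The calcineurin-like Chp1 (-0.45), the calmodulin gene Calm2 (-0.32) and the integrin-binding Cib1 (-0.31) fell. The actin crosslinker Actn1 rose by 0.41, and Calb1, below background in both groups, by 0.29. Chp1 and Actn1 were called without any 1 array. The calls of Calm2 (adjusted p = 0.0742 and 0.0808), Cib1 (0.0677 and 0.0714) and Calb1 (0.0675 and 0.0639) were lost without control replicate 2 and without NICD1 replicate 2, which left 1 rise and 1 fall in each case. Rises also numbered 1 without NICD1 replicate 1, and falls 2 without control replicate 3 and 1 without NICD1 replicate 3.

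For 4 pairs whose proteins form complexes, the difference of the 2 log2 values on each array was compared between groups, since both values come from the same array. S100a10 minus Anxa2 was -1.15, -0.90 and -0.92 in control and -0.65, -0.84 and -0.84 in NICD1 cells, higher on all 3 NICD1 arrays by a mean of 0.22, and by 0.14 without control replicate 1. The two-sided exact permutation test gave p = 0.1, the lowest possible with 3 against 3, and 0.2 adjusted over the 4 pairs. S100a6 minus Cacybp was higher by 0.17 with the same exact p of 0.1, adjusted 0.2, and by 0.11 without NICD1 replicate 1. S100a11 minus Anxa1 was higher by 0.22 (exact p = 0.2) and S100a8 minus S100a9 lower, at -0.027 (exact p = 0.9). This design cannot reach 0.05 for a single pair, so the pairs are given by their values.

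**Figure D4:**
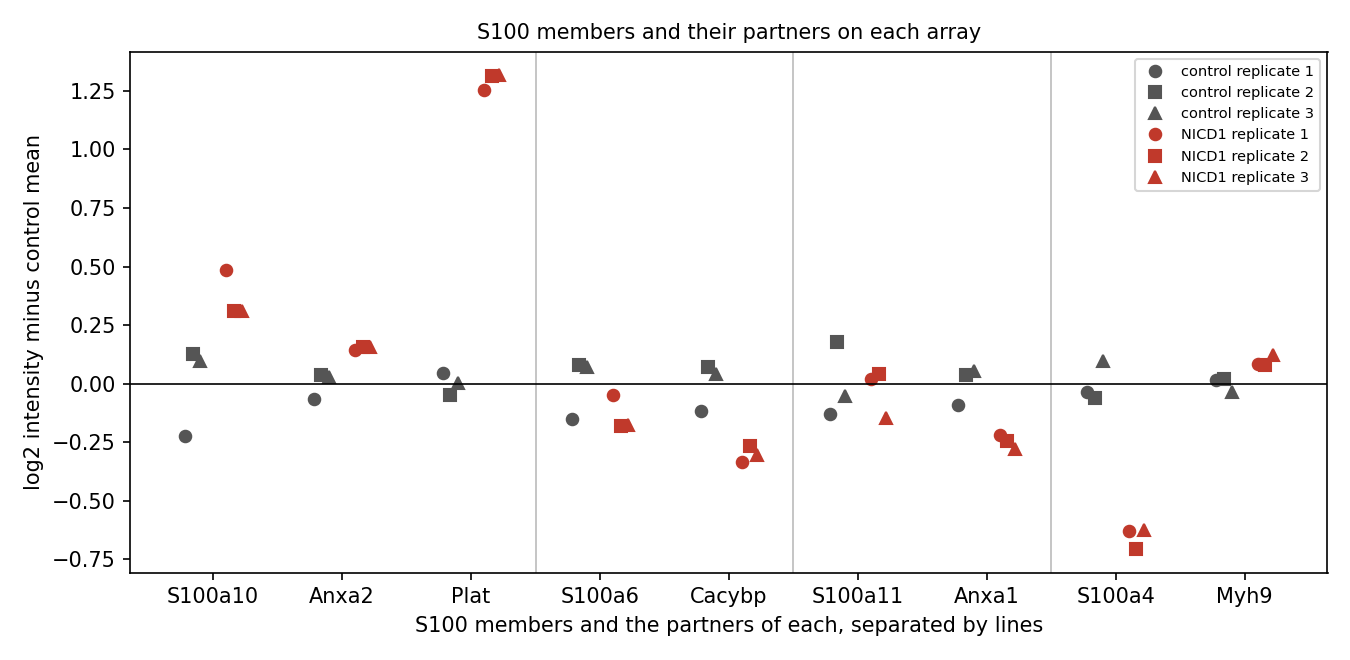
Log2 intensity minus the control mean of the same gene, for S100a10, S100a6, S100a11 and S100a4 and genes whose proteins act with each, on 3 control (grey) and 3 NICD1 (red) arrays. Plat is higher by 1.29, S100a4 is at -0.65 and Myh9 is near its control level, and control replicate 1 is the lowest control for S100a10, S100a6, S100a11, Anxa2, Cacybp and Anxa1.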

How the data were processed

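Total RNA of 6 samples was labelled as cDNA with Affymetrix whole-transcript kits and read on 1 array each, per the labels' protocols. The authors deposited linear intensity values per probe set, which per the submitters' processing notes came from RMA in Affymetrix Expression Console. RMA equalises the distribution between arrays, so a shift common to most genes is removed. The number of arrays limits the precision.

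Log2 was taken with no pseudocount and no filter. Of 36685 probe sets, 18511 had 1 gene symbol, 575 several and 17599 none. Values were averaged per symbol, giving 18166 genes. Groups come from the sample titles. Groups were compared with limma 3.58.1 (lmFit, eBayes) in R 4.3.3, two-sided, adjusted by Benjamini-Hochberg across all genes. Scripts were tested on simulated data. Pairs of genes were compared by exact permutation over the 20 arrangements of the arrays.

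Members and gene lists were chosen with earlier results of these data known. Named were every S100 gene with a value in the lists, Notch1 and Hey1, called genes of each other list, called neighbours (15 genes on each side and those between members) and, per called member, the 3 genes most like it. Cell type markers, Anxa2, Myh9, Ager, Tlr4, S100vp and S100a11l1 are named outside this rule. Names and gene order come from the RefSeq annotation of GRCr8. Same-numbered arrays did not deviate together (correlations of deviations -0.03, -0.01 and -0.01), so the numbers were not used to pair samples. The labels do not say if same-numbered arrays were prepared together, and these correlations cannot decide it. The alternatives were array weights, a replicate block, testing each probe set, the brightest probe set of a gene, a repeated quantile normalisation, centring on array medians, a robust prior with an intensity trend, dropping the dimmest 30% of genes, an adjusted p under 0.01 and leaving out each array. Marker sums were also taken without the brightest marker, a choice made after the values were seen. Figures were drawn with matplotlib 3.10.9.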

Additional observations from a re-analysis of the deposited data

How the results depend on the processing

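The fall of S100a4 kept its direction and its call under all 9 other settings and without any 1 array, with changes from -0.69 to -0.60. With the numbers as a replicate block, a pairing that neither the labels nor the arrays can decide, 1919 genes were called, against 2666 without it. In that fit S100a4 was -0.65 (limma adjusted p = 0.00424) and S100a10 0.37 (0.142), and Calm2 lost its call (0.0764). The number of members called higher was 0, and it was 1 (S100a10) with quantiles normalised again, without the dimmest 30% of genes and with an intensity trend. Without 1 array it ran from 0 to 1, the 1 being S100a3 without control replicate 3 (limma adjusted p = 0.0353). Other S100 genes called higher numbered 1, and 0 when each probe set was tested or at an adjusted p under 0.01, and from 0 to 1 without 1 array. Those called lower numbered 0, and 1 with array weights, and from 0 to 1 without 1 array. Partners called higher numbered 8, and 5 with the replicate block, with each probe set tested and at 0.01, and from 5 to 8 without 1 array. Partners called lower numbered 6, and 2 with each probe set tested and at 0.01, and from 2 to 6 without 1 array. Neighbours called lower numbered 2, then 1 with the replicate block, 0 with each probe set tested and at 0.01, and from 0 to 1 without 1 array. With array weights they numbered 3, S100a7a among them. Neighbours called higher numbered 2, and from 2 to 3 without 1 array. The change of S100a8, 0.017, was -0.014 under median centring and -0.0092 with quantiles normalised again, and from -0.043 to 0.10 without 1 array. Without 1 array the sign also turned for S100a1 (-0.096 to 0.028), S100a5 (-0.030 to 0.14), S100a9 (-0.016 to 0.12), S100a11 (-0.093 to 0.060), S100g (-0.062 to 0.035) and the S100a8 minus S100a9 difference (-0.11 to 0.090), none of them called. The causes were not tested. Signal near or below background limits S100a3, S100a5, S100a8 and S100a9, and S100z outside the members.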
